A study of Tachysurus vachellii with 6 samples.

Results

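The genes described here belong to the GTPase IMAP family (GTPases of immunity-associated proteins, or GIMAP) and were measured in messenger RNA of the catfish gill. They were chosen by annotation: a gene was taken when its description in the deposited table named a GTPase IMAP family member and its FPKM was at least 1 in at least 3 of the 6 libraries. FPKM is a read count scaled to transcript length and library total. Of 28288 genes in the table, 54 matched by description, none by a gimap symbol, and 32 passed the FPKM filter. They stand among 15312 genes of the whole table that passed the same filter and were tested.

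The fish were hybrid yellow catfish (Tachysurus fulvidraco ♀ × Pseudobagrus vachellii ♂). Hypoxia meant 96 h in water with 1.5 mg/L of oxygen, and normoxia, the control, meant 6.5 mg/L for the same time. All fish were acclimated at ordinary oxygen and fasted before the trial, and the labels give no age and no gene-modified line. Each group had 9 fish, whose RNA was mixed in sets of 3, giving 3 hypoxia and 3 normoxia libraries with 44762764 to 55016223 counts each, of which 16813 to 39441 fell on the 32 genes. A library is thus a pool, and all errors describe the spread between pools.

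IMAP proteins share a GTP-binding domain of the AIG type, related to that of septins. In mammals they are best known from lymphocytes, where GIMAP5 is needed for the survival of T cells, GIMAP4 has been linked to the pace of T cell death, GIMAP7 can stimulate GTP hydrolysis by other members, GIMAP6 has been linked to autophagy, and GIMAP8 carries repeated copies of the GTP-binding domain. Mammalian members lie side by side in a single gene cluster, whereas fish genomes such as that of zebrafish hold many copies. The number in a catfish description (4-like, 7-like, 8-like) says which named protein of another fish the gene resembled most, and is a likeness rather than an identity. The functions of the catfish copies are not known from these data.

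By description 15 of the 32 genes were 4-like, 4 were 7-like and 13 were 8-like. The transcripts of LOC113640863, counted as 8-like, are described as 8-like or uncharacterized. The deposited table also gives KO (KEGG orthology) entry K04396 for the 4-like gene LOC113642454 and K10884 for the 8-like genes LOC113653753 and LOC113653772. Whether these entries or the descriptions are right was not tested. The 32 genes lay on 16 scaffolds, whose coordinates are printed as deposited and whose assembly the sources do not name. Of the 32 genes, 15 reached an FPKM of 1 in 6 libraries, 10 in 5 libraries and 7 in 3 or 4 libraries. Their mean level over the libraries ran from 1.17 FPKM for the 8-like gene LOC113645139 to 35.2 FPKM for the 4-like gene LOC113642438, with a median of 5.54 FPKM against 7.63 FPKM over all genes tested. Transcript length, worked out from count and FPKM, had a median of 2230 bases for the family and 2570 bases for all genes tested. How alike the copies are in sequence was not tested. Reads may have been split or shared between like copies by the authors' mapping, and single values are uncertain to that extent.

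**Figure D1:**
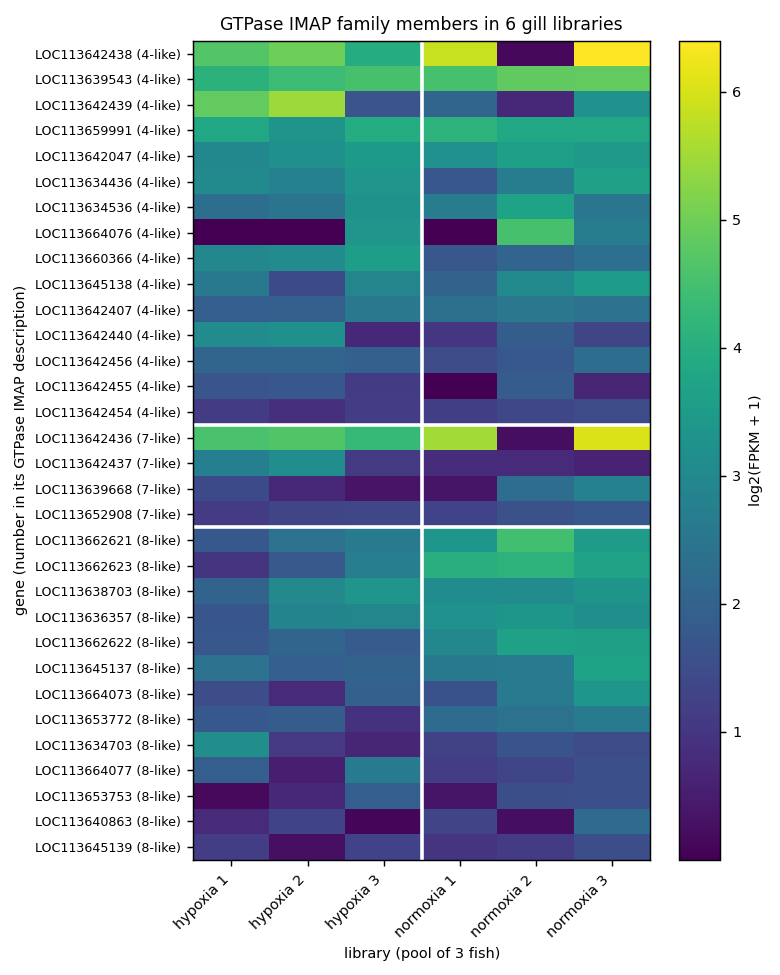
Levels of the 32 GTPase IMAP genes (rows, grouped by the number in their description and ordered by mean level) in the 3 hypoxia and 3 normoxia gill libraries (columns), as log2(FPKM + 1). LOC113639543 is high in every column, whereas LOC113642438 and LOC113642436 are high in 5 columns and near 0 in normoxia replicate 2.

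The comparison of hypoxia with normoxia asks which of these genes differ in the gill when water oxygen is low. In hypoxia 2 of the 32 genes were higher, the 4-like gene LOC113660366 and the 7-like gene LOC113642437, and 2 were lower, the neighbouring 8-like genes LOC113662622 and LOC113662621. A call is a Benjamini-Hochberg adjusted p under 0.05 over all 15312 genes in edgeR's quasi-likelihood test on the counts. The 4 calls are 12.5% of the family, against 9.54% of all genes tested. By direction, 6.25% of the family was higher against 5.39% of all genes, and 6.25% was lower against 4.15% of all genes. These shares lie near those of the whole table. LOC113642437 reached an FPKM of 1 in hypoxia libraries only, so the filter let it in through the group in which it is high, and without it 3 of 31 genes were called (9.68%), 1 higher (3.23%) and 2 lower. Of the 32 genes 23 had a log2 difference below 0, as had 8101 of the 15312 genes tested. The medians were -0.29 for the family and -0.04 for all genes. An unadjusted edgeR p under 0.05 was found for 6 of the 32 genes, against 4643 of the 15312 genes tested. With other tools, DESeq2 called 3332 of the 15312 (1540 lower) and limma on log2(FPKM + 1) called 1366 (887 lower). In bulk tissue such as this, fewer cells of a type and less RNA per cell cannot be told apart.

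Hypoxia and normoxia FPKM were fully separated in 9 of the 32 genes, or 28.1%, against 37.3% of all genes tested. For 2 of these the hypoxia libraries lay above (11.4% of all genes) and for 7 they lay below (25.9% of all genes). The 2 are LOC113660366 and LOC113642437. The FPKM filter fixed the separation of LOC113642437 in advance, since its FPKM was under 1 in every normoxia library. These FPKM are as deposited, without the TMM scaling that the edgeR values carry. Without that scaling the median log2 difference of all genes moved to -0.21 and that of the family to -0.45, and the same 4 genes were called. Over all genes the share of calls that were higher was 56.5% with TMM scaling, 31.0% with library totals, 35.1% with limma on log2(FPKM + 1) and 67.9% with the length offset.

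**Figure D2:**
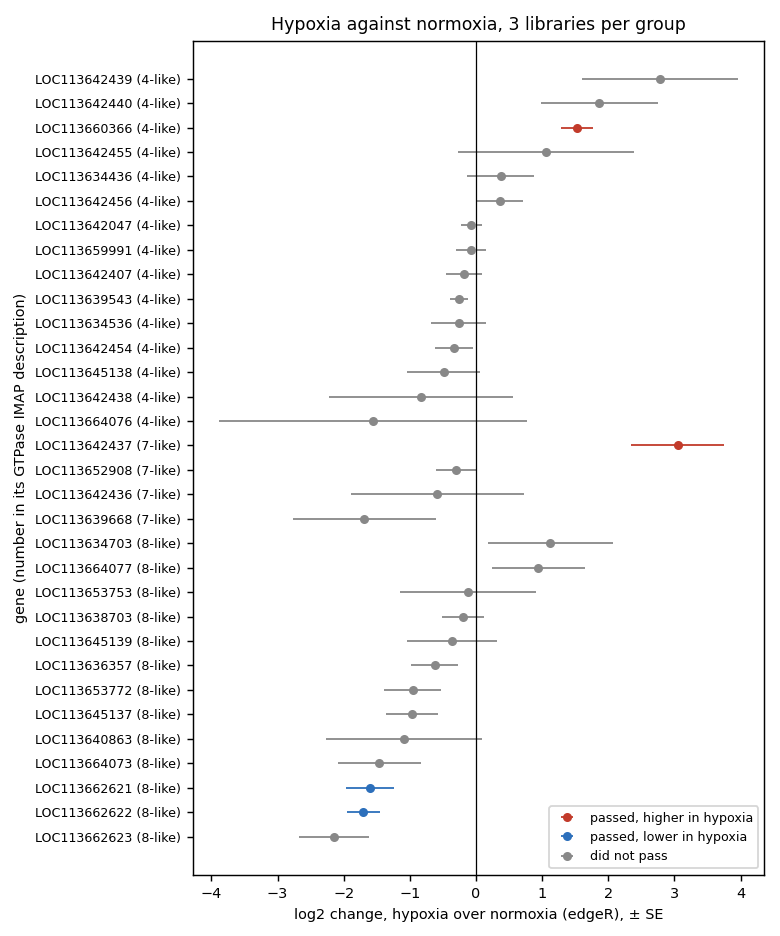
Log2 change of each GTPase IMAP gene in hypoxia over normoxia from edgeR (points) with its SE (bars), 3 libraries per group, grouped by the number in the description. The 2 genes that passed as higher lie at 1.53 and 3.05 and the 2 that passed as lower at -1.71 and -1.60, while 23 of the 32 points lie below 0.

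Of the 4-like genes LOC113660366 was the only member called. It lies on scaffold NW_020848039.1 from 260236 to 265376, on the plus strand, outside the clusters of members. It had 6.79, 7.43 and 10.9 FPKM in hypoxia replicates 1, 2 and 3, against 2.36, 3.27 and 4.04 FPKM in normoxia replicates 1, 2 and 3. All hypoxia libraries lay above all normoxia libraries, and the gene rose 2.88-fold (log2 change 1.53 ± 0.24 SE, edgeR adjusted p = 0.0210). The call held under 9 of 9 other settings of the test, and in 3 of the 6 fits that left out 1 library. Without hypoxia replicate 1, hypoxia replicate 2 or normoxia replicate 2 the adjusted p rose to at most 0.0775, while the log2 change in the 6 fits stayed between 1.37 and 1.71.

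The fall among the 8-like genes was in a set of neighbours on scaffold NW_020848090.1, all on the minus strand between 1890666 and 1936568. LOC113662622, from 1890666 to 1895800, had 2.31, 3.25 and 2.60 FPKM in the hypoxia libraries, against 6.81, 11.7 and 11.4 FPKM in the normoxia libraries. It fell 3.27-fold (log2 change -1.71 ± 0.25 SE, edgeR adjusted p = 0.0192), the groups did not overlap, and the call held under 9 of 9 other settings. With 1 library left out it held in 3 of 6 fits. It was lost when hypoxia replicate 1, or else normoxia replicate 2 or 3, was dropped, at an adjusted p of at most 0.0689.

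LOC113662621, from 1900551 to 1936568, had 2.41, 4.36 and 5.34 FPKM in the hypoxia libraries, against 9.33, 20.9 and 10.4 FPKM in the normoxia libraries. It fell 3.04-fold (log2 change -1.60 ± 0.36 SE, edgeR adjusted p = 0.0424) with no overlap of the groups. The call held under 5 of 9 other settings and was lost without the FPKM filter, with the filterByExpr filter of edgeR, with the length offset and with a replicate block. It was also lost in 6 of the 6 fits that left out 1 library, where the adjusted p ran from 0.0510 to 0.103 and the log2 change from -1.78 to -1.16. LOC113662623, from 1903513 to 1906028, lies inside the span of LOC113662621 on the same strand, so their reads may not be told apart. It had 0.971, 2.44 and 5.68 FPKM in the hypoxia libraries, against 15, 16.5 and 11.9 FPKM in the normoxia libraries. The groups did not overlap here either, but the gene did not pass (log2 difference -2.15 ± 0.53 SE, edgeR adjusted p = 0.0507), and it did pass with DESeq2, with limma and without hypoxia replicate 3.

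Summed over these 3 genes the level was 5.69, 10.05 and 13.6 FPKM in the hypoxia libraries, against 31.1, 49.05 and 33.7 FPKM in the normoxia libraries. The highest hypoxia sum was under the lowest normoxia sum. This adds nothing to the single genes, since the groups were already separated in each of the 3. Of the 3 other genes tested within 100 kb of the set, jcad and znf438 passed as lower, against 4.15% of all genes tested. Beside each of the other clusters of members at most 1 tested gene passed as lower. The log2 changes were -1.53 for jcad, which encodes a junctional protein of endothelial cells in mammals, and -0.88 for znf438, which encodes a zinc finger protein. With 1 library left out znf438 was called in 0 of 6 fits and jcad in 1, without hypoxia replicate 3, at adjusted p of up to 0.104 and 0.130. The remaining neighbour was svil, which encodes the actin-binding protein supervillin (log2 difference -0.79, edgeR adjusted p = 0.0671).

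**Figure D3:**
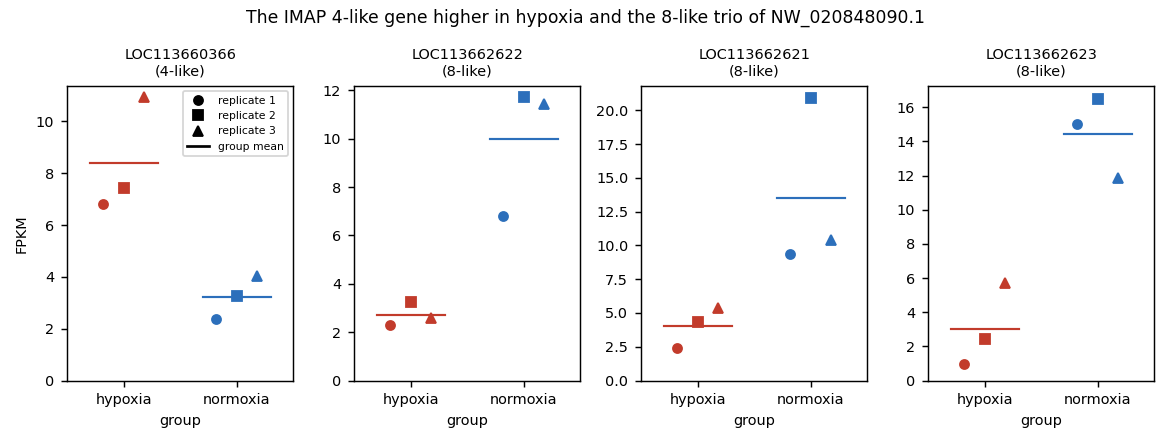
FPKM of the 4-like gene LOC113660366 and of the 3 neighbouring 8-like genes of scaffold NW_020848090.1 in each hypoxia and normoxia library (symbols mark replicates, lines group means). Hypoxia lies wholly above normoxia for LOC113660366, at 6.79 to 10.9 against 2.36 to 4.04 FPKM, and wholly below it for the other panels.

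Beyond that set edgeR called no 8-like gene, and DESeq2 called 1, LOC113664073, as lower. Of 13 tested, 2 were lower and none higher with edgeR (4 had an unadjusted p under 0.05, and DESeq2 and limma called none higher), 11 had a log2 difference below 0, and the median was -0.96. Over all genes 4.15% were called lower, while 4643 of 15312 had an unadjusted p under 0.05 and 8101 a log2 difference below 0. The groups did not overlap in 6 of the 13, in each case with hypoxia below, against 25.9% of all genes on the same unscaled FPKM. These values over the 13 include the genes of NW_020848090.1, which hold the 2 edgeR calls and 3 of the 6 genes without overlap. The rest of the 6 lie among the other 10 genes. The summed level of the 13 genes was 32.4, 33.5 and 46.2 FPKM in the hypoxia libraries, against 63.5, 87.7 and 88.6 FPKM in the normoxia libraries. Without the 3 genes of NW_020848090.1 the sum of the other 10 was 26.7, 23.4 and 32.6 FPKM in the hypoxia libraries, against 32.4, 38.7 and 54.9 FPKM in the normoxia libraries, so that the groups then overlapped by a narrow margin. Divided by the TMM factors they ran from 25.1 to 31.49 FPKM in hypoxia and from 31.5 to 51.0 FPKM in normoxia, just without overlap. Among these 10, LOC113645137 had the smallest p (log2 difference -0.96 ± 0.39 SE, edgeR adjusted p = 0.152). Its levels were 4.29, 2.75 and 3.09 FPKM in hypoxia, against 4.97, 5.37 and 12.1 FPKM in normoxia. The gene sits on scaffold NW_020847798.1 from 2295336 to 2299448, behind the 4-like gene LOC113645138 and the 8-like gene LOC113645139, whose log2 differences were -0.49 and -0.36.

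The 4-like genes had no common direction. Of 15 tested, 1 was higher and none lower with edgeR (1 had an unadjusted p under 0.05, and DESeq2 and limma called no 4-like gene lower), 9 had a log2 difference below 0, and the median was -0.07. Over all genes 5.39% were called higher and 4.15% lower, while 4643 of 15312 had an unadjusted p under 0.05 and 8101 a log2 difference below 0. The summed level of the 15 genes was 129, 148 and 119 FPKM in the hypoxia libraries, against 129, 118 and 191 FPKM in the normoxia libraries, with overlapping groups. Several well-expressed 4-like genes were fairly even between libraries of the same group. LOC113639543, on NW_020848323.1 from 1190451 to 1195373, had 16.2, 19.9 and 22.1 FPKM in the hypoxia libraries, against 22.0, 27.6 and 28.0 FPKM in the normoxia libraries (log2 difference -0.26 ± 0.13 SE, edgeR adjusted p = 0.228). LOC113659991 averaged 12.2 ± 2.93 FPKM in hypoxia and 14.3 ± 1.93 FPKM in normoxia (SD, n = 3 libraries each). LOC113642047 averaged 8.52 ± 1.66 FPKM in hypoxia and 9.93 ± 1.43 FPKM in normoxia. Both of these differences were -0.07 on the TMM-scaled log2 scale and took either sign when single libraries were left out.

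Of the 4 genes described as 7-like, 1 was higher, LOC113642437, which passed the FPKM filter through the hypoxia libraries only. Over all genes 5.39% were higher. Of the 4, 3 had a log2 difference below 0 and the median was -0.45. Their summed level was 31.5, 34.1 and 21.4 FPKM in the hypoxia libraries, against 47.0, 6.76 and 74.6 FPKM in the normoxia libraries, and the groups overlapped. The 2 that stand alone, LOC113652908 and LOC113639668, had log2 differences of -0.31 ± 0.30 and -1.69 ± 1.08 (SE) and did not pass, and the other 2 lie in a cluster. LOC113639668 had 1.73, 0.657 and 0.269 FPKM in the hypoxia libraries, against 0.284, 3.87 and 5.985 FPKM in the normoxia libraries.

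Large differences between libraries of a group were found in a cluster of 5 members on scaffold NW_020848409.1 from 1427150 to 1491546. The cluster holds a repeated unit of a 7-like gene on the minus strand and a 4-like gene on the plus strand, which start next to each other and point apart. In the first unit LOC113642437 (7-like) and LOC113642439 (4-like) are separated by 81 bases, and in the second LOC113642436 (7-like) and LOC113642438 (4-like) by 116 bases. A further unit joins LOC113642442, a 6-like gene under the FPKM filter, to the 4-like gene LOC113642440 across 1043 bases.

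The second unit held the highest normoxia means of the family and had few counts in 1 library. LOC113642436 had 22.8, 24.2 and 18.5 FPKM in the hypoxia libraries, against 44.5, 0.172 and 65.6 FPKM in the normoxia libraries. LOC113642438 had 24.7, 30.6 and 14.6 FPKM in the hypoxia libraries, against 57.5, 0.103 and 83.4 FPKM in the normoxia libraries. In normoxia replicate 2 these genes had 17 and 7 counts, against 5086 and 4569 counts in normoxia replicate 1. The ratio of LOC113642436 to LOC113642438 ran from 0.774 to 1.67 over the 6 libraries, the highest of these resting on the 17 and 7 counts of normoxia replicate 2. In the first unit the ratio of LOC113642437 to LOC113642439 ran more widely, from 0.0647 to 1.11. For LOC113642436 and LOC113642438 the highest normoxia library was 382-fold and 812-fold above the lowest. Whether reads of these copies were mapped elsewhere in that library, or the copies differ between the pooled fish, was not tested.

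Neither gene of the second unit passed the test, with log2 differences of -0.58 ± 1.31 and -0.83 ± 1.39 (SE) for LOC113642436 and LOC113642438. The SE is larger than the difference in both, and the sign turned in limma on log2(FPKM + 1), at 0.57 and 0.41. Among all genes there were 71 cases of a gene with a mean of at least 10 FPKM in 5 libraries and under 1% of that mean in the sixth. Of these 29 were in normoxia replicate 1, 12 in hypoxia replicate 1 and 12 in normoxia replicate 2. The unit accounted for 2 of those in normoxia replicate 2. This criterion was set after the values had been seen.

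The first unit and LOC113642440 showed another pattern, high in hypoxia replicates 1 and 2. LOC113642437 had 5.79, 7.79 and 1.12 FPKM in the hypoxia libraries, against 0.769, 0.714 and 0.548 FPKM in the normoxia libraries. It was 8.27-fold higher in hypoxia (log2 change 3.05 ± 0.70 SE, edgeR adjusted p = 0.0438) with no overlap of the groups. It reached an FPKM of 1 in the 3 hypoxia libraries only and stands just inside the filter. For such a gene the filter fixes the lack of overlap in advance. Its call held without hypoxia replicate 3 and was lost in the other 5 fits that left out 1 library, with an adjusted p of up to 0.136. It held under 4 of 9 other settings and was lost without the FPKM filter, with filterByExpr, with limma at either pseudocount and with a replicate block.

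LOC113642439 had 28.0, 43.2 and 2.24 FPKM in the hypoxia libraries, against 3.23, 0.645 and 8.47 FPKM in the normoxia libraries. LOC113642440 had 7.45, 8.26 and 0.675 FPKM in the hypoxia libraries, against 1.01, 2.70 and 1.52 FPKM in the normoxia libraries. In both genes hypoxia replicates 1 and 2 lay above every normoxia library and hypoxia replicate 3 below at least 2 of them. Neither passed, with log2 differences of 2.78 ± 1.18 and 1.86 ± 0.89 (SE) and edgeR adjusted p of 0.167 and 0.206. The nearest tested gene outside the family, the carboxypeptidase Z-like gene LOC113642490, also had its 2 highest levels in hypoxia replicates 1 and 2, at 6.62, 12.2 and 1.92 FPKM in hypoxia against 1.44, 1.94 and 2.91 FPKM in normoxia (log2 difference 1.92, edgeR adjusted p = 0.100). The other 5 genes tested within 100 kb had at most 2.60-fold between the highest and the lowest library of a group.

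**Figure D4:**
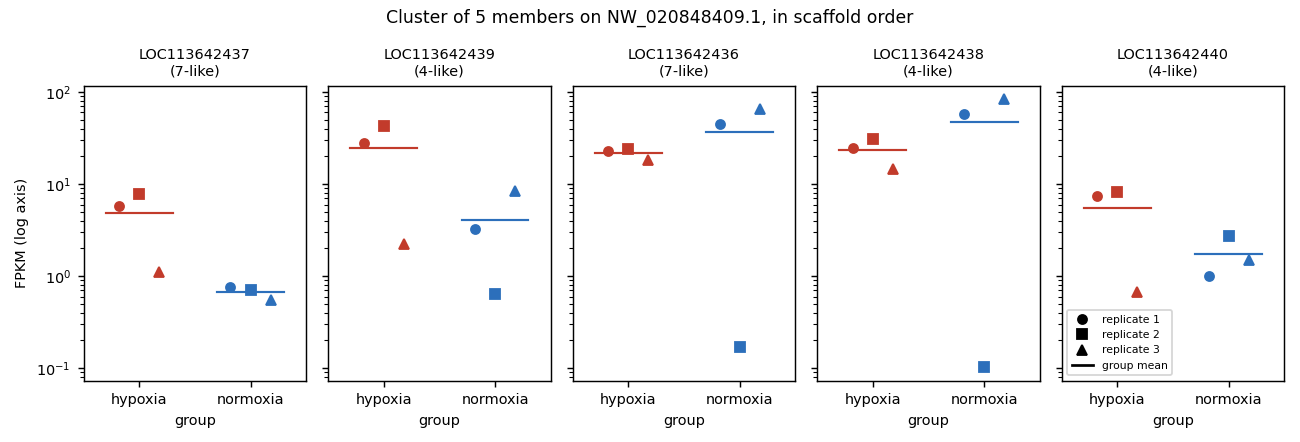
FPKM on a log axis of the 5 GTPase IMAP genes of the first cluster on scaffold NW_020848409.1, in their order along the scaffold, in each hypoxia and normoxia library (symbols mark replicates, lines group means). LOC113642436 and LOC113642438 lie at 14.6 to 30.6 FPKM in hypoxia and at 0.103 to 83.4 FPKM in normoxia, and in the other panels hypoxia replicate 3 lies far below hypoxia replicates 1 and 2.

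A second cluster on the same scaffold, from 1898469 to 1937716, held 4 members, all 4-like, of which none was called with edgeR, DESeq2 or limma or had an unadjusted edgeR p under 0.05. Over all genes edgeR called 9.54%, and 4643 of 15312 had an unadjusted p under 0.05. The summed level of the cluster was 9.51, 9.24 and 10.3 FPKM in the hypoxia libraries, against 7.24, 11.3 and 10.7 FPKM in the normoxia libraries. Within it LOC113642407 averaged 3.52 ± 1.23 FPKM in hypoxia and 4.40 ± 0.320 FPKM in normoxia (SD, n = 3 each). LOC113642455 had 129, 160 and 85 counts in the hypoxia libraries, against 0, 158 and 39 counts in the normoxia libraries, and did not pass. Beside the cluster lie 3 caspase-6-like genes, which resemble an executioner protease of cell death. Of these LOC113642424 was lower, against 4.15% of all genes tested. It had 8.89, 6.75 and 10.2 FPKM in hypoxia, against 20.7, 26.0 and 15.01 FPKM in normoxia (log2 change -1.09, edgeR adjusted p = 0.0392, and 0.0517 to 0.117 with 1 library left out). LOC113642426 and LOC113642460 did not pass, with log2 differences of 0.24 and 0.01 (edgeR adjusted p of 0.683 and 0.987). The scaffold as a whole carried 14 of the 54 annotated IMAP genes, 9 of them above the FPKM filter.

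With members at most 100 kb apart counted together, 20 of the 32 genes fell into 6 clusters of 2 to 5 genes and 12 stood alone. On scaffold NW_020848128.1 a cluster of 3 members, from 170019 to 301208, also varied by library. Its 4-like gene LOC113664076 had 0, 0 and 897 counts in the hypoxia libraries, against 0, 1899 and 488 counts in the normoxia libraries. Each group thus held at least 1 library without a count and 1 with 897 or more. Its 8-like gene LOC113664077 had 2.73, 0.463 and 5.08 FPKM in hypoxia, against 1.24, 1.51 and 1.95 FPKM in normoxia. Between these members lie 3 genes described like the same uncharacterized zebrafish protein (LOC113664078, LOC113664079 and LOC113664080), for which hypoxia replicate 2 had no count. An interferon-induced very large GTPase 1-like gene, LOC113664071, lies in the same stretch and did not pass, its log2 value being -0.64. The middle member, LOC113664073 (8-like), had 1.86, 0.682 and 2.87 FPKM in hypoxia, against 2.08, 5.30 and 9.25 FPKM in normoxia (log2 difference -1.47 ± 0.63 SE, edgeR adjusted p = 0.169).

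The spread between libraries of a group was wider for the family than for most genes. The coefficient of variation within groups that edgeR estimates per gene had a median of 0.451 over the 32 members, against 0.237 over all genes tested and 0.242 over the 12944 genes in the members' range of mean FPKM. It exceeded the upper quartile of all genes (0.314) in 24 of the 32 members. In 11 of the 32, or 34.4%, the highest library of a group was at least 10-fold above the lowest of the same group, against 3.08% of all genes tested and 2.82% of those in the same FPKM range (a library under 3 counts was set to 3 counts). Of the 11 genes, 7 lay in clusters and 4 alone, the groups overlapped in all 11, and none was called by edgeR, DESeq2 or limma or had an unadjusted edgeR p under 0.05. The 11 were picked by their spread, which makes overlap and a lack of calls likely in advance. The median SE of the log2 difference was 0.52 for the family and 0.21 for all genes tested.

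**Figure D5:**
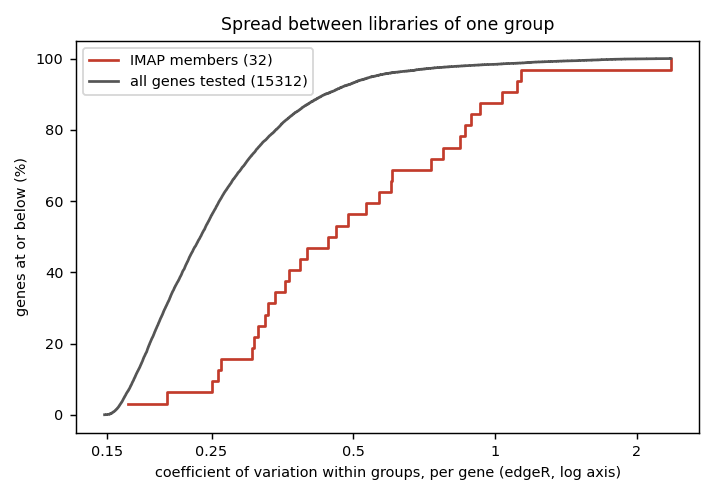
Share of genes (vertical axis, percent) at or below a given coefficient of variation between libraries of a group (horizontal axis, log scale, edgeR estimate per gene), for the 32 GTPase IMAP genes and for all 15312 genes tested. The line of the family lies to the right, with a median of 0.451 against 0.237.

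Over the other 21 members, in which no group spanned 10-fold, 2 were higher and 2 lower, against 5.39% and 4.15% of all genes. The higher genes include LOC113642437, which the FPKM filter let in through the hypoxia libraries only. Of the 21, 17 had a log2 difference below 0, against 8101 of all 15312 genes, and the median was -0.31. The 21 were set apart by their spread, which the test also uses, and the share called among all genes of such spread was not counted. The sum over all 32 genes was 193, 216 and 187 FPKM in the hypoxia libraries, against 240, 212 and 355 FPKM in the normoxia libraries, or 198.5 ± 15.4 FPKM in hypoxia and 269 ± 75.5 FPKM in normoxia (SD, n = 3 each). The groups overlapped, since normoxia replicate 2 lay below hypoxia replicate 2. The difference in means was -70.4 FPKM, and -27.5 FPKM without normoxia replicate 3, in which 14 of the 32 members were highest. The members that led the sum changed with the library. LOC113642439 was highest in hypoxia replicates 1 and 2, LOC113639543 in hypoxia replicate 3 and normoxia replicate 2, and LOC113642438 in normoxia replicates 1 and 3.

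Of the 22 annotated IMAP genes under the FPKM filter, 12 stayed below an FPKM of 1 in every library. A few were high in single libraries. The 8-like gene LOC113658986 had 2351 counts (19.9 FPKM) in hypoxia replicate 3 and 0 in the other 5 libraries. LOC113638268, whose transcripts are described as 8-like or uncharacterized, had 8953 counts (30.4 FPKM) in normoxia replicate 2 and 2032 counts (5.98 FPKM) in hypoxia replicate 3, against 92 to 191 counts in the other 4 libraries. LOC113664075, near LOC113664076, was likewise highest in normoxia replicate 2 (957 counts) and hypoxia replicate 3 (385 counts). Just inside the filter, LOC113642437 had 1.12 FPKM in the last of the 3 libraries that it needed to pass, and just outside it LOC113664061 had 0.885 FPKM there.

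Because IMAP genes are known from lymphocytes, the levels of blood cell markers are given beside them. Of 7 T cell genes tested none was called by edgeR, although 6 had an unadjusted p under 0.05, against 4643 of all 15312 genes. DESeq2 called 3 of the 7 and limma 2 as lower, against 1540 and 887 of all genes. The median log2 difference of the 7 genes was -0.55. Their summed level was 113, 138 and 126 FPKM in the hypoxia libraries, against 187, 223 and 189 FPKM in the normoxia libraries. The T cell receptor subunit cd3e had 19.4, 30.4 and 27.1 FPKM in hypoxia, against 42.4, 41.4 and 36.1 FPKM in normoxia. Of the 17 T cell symbols searched, 6 were present. The T cell kinase lck did not pass (log2 difference -0.55 ± 0.15 SE, edgeR adjusted p = 0.0594), and neither did cd247, the zeta chain of the receptor complex (log2 difference -0.55 ± 0.17 SE, edgeR adjusted p = 0.0764).

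Of 14 B cell genes 4 were lower, against 4.15% of all genes tested, among them cd79a, the alpha chain of the B cell receptor complex, at 4.82, 4.41 and 5.46 FPKM in hypoxia against 9.81, 23.1 and 13.5 FPKM in normoxia (edgeR adjusted p = 0.0352). The others were btk, blnk and pou2af1. The beta chain of the receptor complex, LOC113653564, did not pass with edgeR (log2 difference -1.345 ± 0.47 SE, adjusted p = 0.110). Nor did the genes of the list matched by the description Ig heavy chain, whose log2 differences ran from -1.46 to 0.09. DESeq2 called 6 of the 14 lower and limma 4, against 1540 and 887 of all genes. Of the 14, 13 had a log2 difference below 0, and the median was -0.77. With 1 library left out 0 to 2 of the 4 were called, with 0 when hypoxia replicate 1 or 2 or normoxia replicate 2 or 3 was dropped. The summed level of the 14 genes was 85.9, 98.8 and 74.1 FPKM in hypoxia, against 142, 193 and 115 FPKM in normoxia. Of 5 macrophage genes spi1 and the macrophage-expressed gene 1-like LOC113656273 were lower, against 4.15% of all genes tested. DESeq2 and limma each called 2 of the 5 lower. The growth factor receptor csf1r was not called with edgeR (8.94 ± 1.77 FPKM in hypoxia and 10.6 ± 0.319 FPKM in normoxia, SD, n = 3 each). The scavenger receptor gene marco lay in the other direction without passing, at 12.4, 10.2 and 6.96 FPKM in hypoxia against 7.29, 1.93 and 5.09 FPKM in normoxia (log2 difference 1.22, edgeR adjusted p = 0.155). Of 6 neutrophil genes the myeloperoxidase gene LOC113661326 was lower, against 4.15% of all genes tested. DESeq2 and limma each called 2 of the 6 lower. The gene ncf1, for a subunit of the phagocyte oxidase, had 115, 61.2 and 63.2 FPKM in hypoxia against 59.6, 56.4 and 59.5 FPKM in normoxia and did not pass (log2 difference 0.64, edgeR adjusted p = 0.201). Leaving out any 1 library ended the calls of spi1 (adjusted p of up to 0.124) and LOC113661326 (up to 0.0999), and leaving out normoxia replicate 3 that of LOC113656273 (0.0510). With edgeR no gene was called of 15 cytotoxic and natural killer, 3 thrombocyte, 9 erythrocyte, 5 endothelial, 3 epithelial or 4 ionocyte genes. Unadjusted p was under 0.05 for 2, 1, 0, 0, 1 and 1 of them, DESeq2 called 1, 0, 0, 0, 1 and 0, and limma 0, 0, 0, 0, 1 and 0. Of all 15312 genes 4643 had an unadjusted p under 0.05, and edgeR called 1461, DESeq2 3332 and limma 1366. The ionocyte genes foxi1 and rhcg, which mark gill tissue, averaged 13.8 ± 1.89 and 70.1 ± 14.7 FPKM in hypoxia, against 11.9 ± 3.89 and 53.1 ± 18.4 FPKM in normoxia (SD, n = 3 each). The other ionocyte genes tested, rhbg and slc12a2, averaged 486 ± 74.7 and 3.19 ± 0.838 FPKM in hypoxia, against 640.4 ± 179.6 and 4.86 ± 0.652 FPKM in normoxia, and of these 4 genes slc12a2 had the unadjusted p under 0.05, while foxi3 was listed at 0 counts and cftr was under the filter. The part of any of these cell types in the IMAP values was not tested.

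None of 21 genes of other immune GTPases passed with edgeR, and their median log2 difference was -0.55. Of the 21, 7 had an unadjusted p under 0.05, against 4643 of all 15312 genes. DESeq2 called 5 of the 21 lower and limma 3, against 1540 and 887 of all genes. The 21 comprise the very large, guanylate-binding, Mx and interferon-inducible GTPases. None of 16 genes of the BCL2 family, the regulators of cell death with which mammalian IMAP proteins have been linked, passed with any of the 3 tools or had an unadjusted p under 0.05, and the median was 0.17. Of 6 genes of lymphocyte survival and homing il2rb, a receptor chain for interleukin-2 and interleukin-15, was lower at 4.98 ± 0.932 FPKM in hypoxia and 8.94 ± 1.30 FPKM in normoxia (SD, n = 3 each, edgeR adjusted p = 0.0413), a call that held without normoxia replicate 1 and was lost without any other library (up to 0.125). With edgeR 4.15% of all genes tested were lower. DESeq2 called 2 of the 6 lower and limma 1. The receptor il7r, which sustains T cells, averaged 28.5 ± 7.77 FPKM in hypoxia and 28.3 ± 7.52 FPKM in normoxia (log2 difference 0.15, edgeR adjusted p = 0.681). Of 3 autophagy genes of the LC3 and GABARAP type, among them gabarapl2, whose mammalian product binds GIMAP6, none passed with the 3 tools or had an unadjusted p under 0.05, and the median was -0.29.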

How the data were processed

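Gill RNA of 3 hypoxia and 3 normoxia pools was analysed from the table the authors deposited. Per the labels' protocols, polyadenylated RNA was selected on oligo-dT beads, and libraries were read from both ends (Illumina NovaSeq). The submitters' processing notes name cutadapt 1.9 and HISAT. The counter, strand setting and build are not stated in the sources used, nor whether a count is a read or a pair. The deposited counts are whole numbers per gene, and the deposited FPKM list a count of 0 at 0.0001.

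Groups and columns were matched by the sample titles. Counts were tested with edgeR 4.0.16 (glmQLFit and glmQLFTest, two-sided, TMM scaling) in R 4.3.3 on genes with FPKM of at least 1 in at least 3 libraries, and each SE is the size of the log2 change over the root of F. TMM factors ran from 0.867 to 1.08. The common coefficient of variation between pools was 0.329, so pools rather than counting limit the precision. Alternatives were DESeq2 1.42.0, limma 3.58.1 with a trend on log2(FPKM + 1) or log2(FPKM + 0.1), library totals, other filters, a loess offset on transcript length, a replicate block, robust dispersion and each library left out. The tests were tried on simulated data. Replicate libraries differed by more than counting noise in every pair (chi-square per gene of 137 or more).

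The members and lists were chosen with earlier results of these data known. Named members are those called, the 6 highest by mean FPKM, the 3 smallest p among the rest, the ends of clusters of 3 or more genes, and the filter edges. LOC113640863, LOC113642454, LOC113653753 and LOC113653772 are named for their annotation only. Lists of related genes and cell types were matched by symbol or description, and their members that pass are named with a few markers. The beta chain gene LOC113653564 was added after its values were seen. LOC113645138, LOC113664073, LOC113652908, LOC113639668, LOC113658986, LOC113638268, LOC113664075, LOC113664078, LOC113664079, LOC113664080, LOC113664071, LOC113642442, the genes beside the clusters and the list genes that neither pass nor belong to those markers (marco, ncf1, foxi1, rhcg, rhbg, slc12a2, il7r and gabarapl2) were chosen after their values were seen, as was the 10-fold criterion. A gene table of another assembly, HZAU_Pvac_v1, held 0 of the 54 identifiers and was not used here. No sequence is printed.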

Additional observations from a re-analysis of the deposited data

How the results depend on the processing

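The 4 member calls (2 higher, 2 lower) kept their number within 1.5 times with library totals, limma, the length offset, robust dispersion (added after seeing the data) and DESeq2 (6). The 6 of 32 with DESeq2 stand beside 3332 of all 15312 genes. There were 2 without an FPKM filter, 2 with filterByExpr and 2 with a replicate block, each 1 higher and 1 lower. Higher calls were 1 with limma at either pseudocount, and lower calls 4 with DESeq2 and 1 with the length offset. With 1 library left out 0 to 4 members were called, 0 to 2 higher and 0 to 2 lower, with 0 without hypoxia replicate 1 or normoxia replicate 2. Over all genes 1461 calls (825 higher, 636 lower) became 3332 with DESeq2 (1792 and 1540), 862 without a filter (541 and 321) and 242 with the replicate block (122 and 120). Higher calls were 364 with library totals, 479 with limma on log2(FPKM + 1) and 436 on log2(FPKM + 0.1), and lower calls 392 with filterByExpr and 363 with the length offset. The share of higher calls was 56.5%, against 31.0% with library totals, 35.1% and 36.8% with limma and 67.9% with the length offset. Without 1 library 132 to 912 genes were called, 68 to 490 higher and 64 to 422 lower. The cause of these shifts was not tested.

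Replicate numbers do not pair the samples: deviations of same-numbered libraries correlated across genes at -0.05, 0.02 and -0.05, and no library correlated best with its own number. Signs turned only in uncalled members among those named. LOC113642438 had 0.41 and 1.17, and LOC113642436 0.57 and 1.23, with limma on log2(FPKM + 1) and log2(FPKM + 0.1), and LOC113642436 0.33 with the replicate block. Without 1 library log2 differences ran from -1.17 to 0.10 for LOC113642436, -0.20 to 0.11 for LOC113659991, -0.15 to 0.023 for LOC113642047, -0.69 to 0.12 for LOC113645139 and -12.6 to 0.21 for LOC113664076, whose hypoxia counts are then all 0 without hypoxia replicate 3. The difference of the family sum, -70.4 FPKM, was -41.5 FPKM after division by the TMM factors and -60.0 FPKM without the cluster of 5, an alternative added after seeing the data. With 1 library left out it ran from -98.7 FPKM without normoxia replicate 2 to -27.5 FPKM without normoxia replicate 3, the library in which 14 of the 32 members were highest. The median SE of the members was 0.52 on the log2 scale. LOC113662623, with an SE of 0.53, did not pass at a log2 difference of -2.15 (edgeR adjusted p = 0.0507). Differences well above the SE could thus be missed in a typical member with 3 pools per group.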
